A study of Homo sapiens with 15 samples.

Results

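SPI1, SPIB and the genes named for the CCAAT/enhancer-binding proteins (C/EBP) were followed through RNA sequencing of OCI-AML5, an established human acute myeloid leukaemia cell line whose medium contained GM-CSF, a myeloid growth factor. The genes were chosen by symbol, and all 8 (SPI1, SPIB, CEBPA, CEBPB, CEBPD, CEBPE, CEBPG and CEBPZ) were found once in each of the deposited tables, among 19604 protein-coding entries kept per table. The 15 libraries formed 5 groups of 3, all from this single line. In the drug experiment cells received 1000 nM ARV-825 for 4 h, 1000 nM OTX015 for 4 h, or no treatment (control). In the shRNA experiment cells carried an shRNA against RUNX1 or a non-targeting shRNA (shNT) for 72 h. OTX015 blocks the bromodomains of BET proteins, chromatin readers that promote transcription elongation, and ARV-825 joins OTX015 to a cereblon ligand so that BET proteins are degraded. The series title describes the cells as carrying mutant RUNX1, and every group shares that background. For the RUNX1 shRNA libraries the treatment label, which names RUNX1, was followed, although their titles say Runx3.

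SPI1 encodes PU.1, an ETS-family transcription factor that opens enhancers of macrophage, granulocyte and B cell genes, and SPIB encodes its nearest relative, best known in B cells and plasmacytoid dendritic cells. C/EBP proteins bind DNA as basic leucine zipper (bZIP) dimers: C/EBPα commits progenitors to the granulocyte and monocyte lineages, C/EBPβ serves macrophages and stress granulopoiesis, C/EBPδ belongs to the inflammatory response, C/EBPε drives terminal granulocyte maturation, and C/EBPγ acts mainly as a partner in dimers. CEBPZ carries the family name but encodes a CCAAT-binding protein without a leucine zipper, related to a yeast ribosome assembly factor. PU.1 and C/EBP proteins occupy many myeloid enhancers together, and RUNX1 binds an upstream enhancer of SPI1.

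Promoters of 4 members are shown as examples of different responses described below, from the 6 members that matched a RefSeq promoter entry (SPI1 and CEBPD did not): CEBPE fell with both drugs, CEBPA fell more with ARV-825 than with OTX015, CEBPB fell with ARV-825 and not with OTX015, and SPIB fell with RUNX1 shRNA. SPIB, at a very low level in the drug libraries, was also lower there with both drugs. Each is the RefSeq window of 300 bases on GRCh38.p14, from 250 bases before the annotated start, written on the strand of the gene. CEBPE is at chr14:23119206-23119505 (minus strand), CEBPA at chr19:33302485-33302784 (minus strand), CEBPB at chr20:50190580-50190879 (plus strand, the second of its 2 windows) and SPIB at chr19:50418688-50418987 (plus strand). Capitals mark 3 motifs. GAGGAA, the core bound by PU.1, was searched on both strands. A C/EBP-type site, TTNNGCAA, was also searched on both. The TATA box was searched as TATAAA on the strand of the gene only, and no matches overlapped in the windows shown.
CEBPE: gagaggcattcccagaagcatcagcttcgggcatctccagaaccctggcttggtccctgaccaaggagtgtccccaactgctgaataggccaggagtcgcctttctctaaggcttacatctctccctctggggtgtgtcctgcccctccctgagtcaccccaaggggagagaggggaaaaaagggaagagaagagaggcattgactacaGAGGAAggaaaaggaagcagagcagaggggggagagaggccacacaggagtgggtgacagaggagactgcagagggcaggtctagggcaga
CEBPA: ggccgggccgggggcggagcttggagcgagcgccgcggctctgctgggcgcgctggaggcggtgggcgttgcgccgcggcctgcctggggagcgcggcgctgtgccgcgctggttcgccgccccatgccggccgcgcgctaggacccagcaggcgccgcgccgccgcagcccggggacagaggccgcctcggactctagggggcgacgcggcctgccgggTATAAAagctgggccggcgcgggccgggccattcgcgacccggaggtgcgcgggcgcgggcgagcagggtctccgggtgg
CEBPB: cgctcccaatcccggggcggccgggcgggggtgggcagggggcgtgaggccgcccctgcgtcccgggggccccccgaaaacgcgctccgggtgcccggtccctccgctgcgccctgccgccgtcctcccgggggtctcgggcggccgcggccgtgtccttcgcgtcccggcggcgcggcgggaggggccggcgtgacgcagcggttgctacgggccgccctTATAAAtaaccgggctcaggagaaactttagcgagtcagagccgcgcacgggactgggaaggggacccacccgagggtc
SPIB: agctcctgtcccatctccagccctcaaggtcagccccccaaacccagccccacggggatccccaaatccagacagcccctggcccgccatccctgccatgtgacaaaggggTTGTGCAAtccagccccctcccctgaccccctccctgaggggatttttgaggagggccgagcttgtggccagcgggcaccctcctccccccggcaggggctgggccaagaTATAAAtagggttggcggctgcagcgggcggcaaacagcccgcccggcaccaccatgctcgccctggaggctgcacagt
CEBPE held a GAGGAA match at position -41 from its start and no TATA box. The windows shown for CEBPA, CEBPB and SPIB each held TATAAA, at positions -30, -29 and -29, whereas the other CEBPB window held none of the motifs, and SPIB also held a TTNNGCAA match at position -139. Of 35116 RefSeq windows of this length, 27.9% held GAGGAA, 10.5% held TTNNGCAA and 7.33% held TATAAA. A RUNX core, TGTGGT on either strand, was in 13.1% of windows and in none of the 8 windows available for 6 members. GC content was 57.7% in the CEBPE window, 67.0% in the SPIB window, 76.7% in the CEBPB window and 80.7% in the CEBPA window, against a median of 58.7% over all windows. These matches describe letters and do not show binding.

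Levels are in FPKM, a read count scaled to transcript length and library size, and the authors had quantile normalized the drug and the shRNA libraries apart from each other. Library sums ran from 554570 to 656995 FPKM, and read depth is unknown. MYC, lowered by BET inhibition in many leukaemia cells, averaged 23.0 ± 1.47 FPKM with ARV-825, 113 ± 1.87 FPKM with OTX015 and 288 ± 6.99 FPKM in control (SD, n = 3 libraries here and below). In the shRNA libraries RUNX1 had 37.2, 42.9 and 36.0 FPKM with RUNX1 shRNA, against 69.8, 72.2 and 69.8 FPKM with shNT. RUNX3 had 28.0, 27.9 and 29.3 FPKM with RUNX1 shRNA, against 27.5, 28.5 and 25.02 FPKM with shNT, so RUNX1 and not RUNX3 was the lower gene in those libraries. Of 12 monocyte and macrophage markers, 7 reached a mean of 1 FPKM in the drug libraries and 7 in the shRNA libraries, led by lysozyme (LYZ). Of 12 neutrophil granule markers, 3 did so in each, and LCN2, a secondary granule gene, was listed at 0 in every library. Erythroid, megakaryocyte, B cell, T and NK cell and epithelial lists had 0 to 2 members at that level in either table. In ARV-825 replicate 1 there were 6 genes of the mitochondrial genome listed at 0, so a listed 0 can be a failed estimate, but no member was at 0 in any library.

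SPI1 had the highest mean of the 8 genes in every group but OTX015, where CEBPD averaged 63.3 ± 4.44 FPKM and SPI1 61.4 ± 3.54 FPKM and their libraries overlapped. In control cells SPI1 averaged 208 ± 15.1 FPKM, and CEBPD, the leading C/EBP gene, 57.4 ± 7.13 FPKM. CEBPB, CEBPA and CEBPZ followed at 34.0 ± 5.11, 33.1 ± 2.6 and 33.1 ± 1.28 FPKM, which did not differ beyond their spread, and neither did CEBPG at 16.4 ± 1.02 FPKM and CEBPE at 16.1 ± 1.15 FPKM. SPIB was last at 0.806 ± 0.137 FPKM. FPKM is scaled to transcript length, so these levels can be set side by side between genes. The comparison is rough, since the unit is inferred and SPIB and CEBPZ overlap other genes. The shNT cells had a similar order at the top, with SPI1 at 159 ± 1.89, CEBPD at 53.2 ± 2.76 and CEBPA at 43.3 ± 1.96 FPKM. CEBPB at 16.5 ± 0.67 FPKM and CEBPG at 16.4 ± 0.568 FPKM were level there, CEBPE stood at 8.26 ± 0.46 FPKM and SPIB at 2.59 ± 0.154 FPKM. Control and shNT cells come from separately normalized tables, and the difference between them was not tested.

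**Figure D1:**
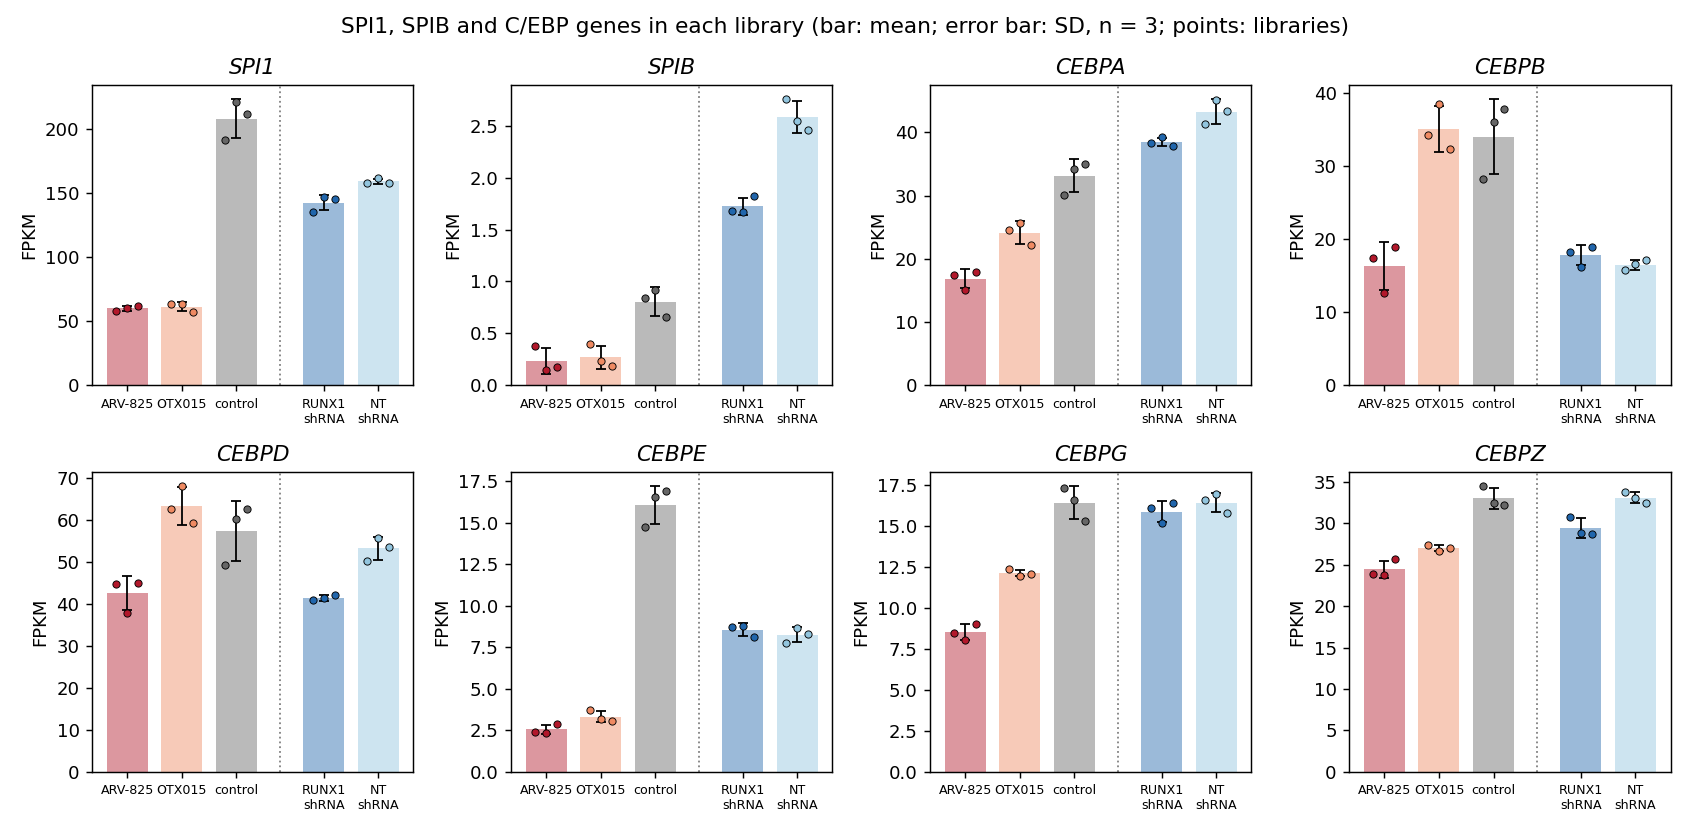
FPKM (linear axis from 0) of each member in the 15 libraries; points are libraries, bars are means and error bars are SD (n = 3), with the drug groups left and the shRNA groups right of the dotted line. SPI1 lies between 57.3 and 63.4 FPKM in all 6 drug-treated libraries and between 192 and 221 FPKM in control, while CEBPB is low only with ARV-825 among the drug groups.

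The first comparison asked how degrading BET proteins changed these factors within 4 h. After ARV-825 SPI1 fell to 28.7% of its control level and CEBPE to 15.9%, CEBPA, CEBPB and CEBPG fell to between 47.9% and 51.9%, and CEBPD and CEBPZ fell to 74.0%. All 7 members tested (mean of at least 1 FPKM over the 9 drug libraries) were lower by limma at an adjusted p below 0.05, where 38.4% of all 10819 tested genes were lower, 35.8% higher and 74.2% changed either way. SPI1, CEBPB and CEBPE, 3 of the 7, passed the test and fell to 0.5 of control or less as FPKM + 1, the scale of the test. Of tested genes 8.16% did so, a share that can leave out low genes whose FPKM fell that far. SPIB did not reach the filter. In each of the 7 genes the 3 ARV-825 libraries lay below the 3 control libraries, a separation in either direction that 76.2% of tested genes showed. In bulk RNA, fewer cells expressing a gene and less of its RNA per cell cannot be told apart.

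SPI1 had 57.7, 60.4 and 61.5 FPKM in the ARV-825 libraries, against 192, 221 and 212 FPKM in the control libraries. Its log2 change of FPKM + 1 was -1.78 ± 0.06 (SE, limma adjusted p = 2.03e-09), which ranked 188 among tested genes by size of fall. SPIB had 0.38, 0.147 and 0.177 FPKM with ARV-825, against 0.841, 0.922 and 0.654 FPKM in control, so both PU.1-type genes were lower in all 3 treated libraries. Tested without the filter on low values, SPIB changed by -0.55 ± 0.093 on the log2 scale (limma adjusted p = 0.00116).

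Of the C/EBP genes, CEBPE, the late granulocyte factor, had the largest fold difference. It had 2.40, 2.37 and 2.89 FPKM with ARV-825, against 14.7, 16.5 and 16.9 FPKM in control, a log2 change of -2.26 ± 0.089 (limma adjusted p = 5.13e-09). CEBPA had 17.4, 15.1 and 17.9 FPKM with ARV-825, against 30.2, 34.2 and 35.0 FPKM in control (-0.94 ± 0.08, limma adjusted p = 1.41e-06). The treated CEBPA libraries were all below the lowest control library. CEBPB had 17.3, 12.6 and 18.9 FPKM with ARV-825, against 28.2, 36.0 and 37.8 FPKM in control (-1.03 ± 0.142, limma adjusted p = 6.05e-05). CEBPB was the most scattered of the members on the log2 scale, with ARV-825 replicate 2 and control replicate 1 the lowest libraries of their groups.

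CEBPG, the dimer partner, had 8.45, 8.07 and 9.03 FPKM with ARV-825, against 17.3, 16.6 and 15.3 FPKM in control (-0.87 ± 0.062, limma adjusted p = 3.34e-07). CEBPD, the inflammatory member, had 44.8, 37.8 and 44.8 FPKM with ARV-825, against 49.2, 60.2 and 62.6 FPKM in control (-0.42 ± 0.095, limma adjusted p = 0.00202). The highest ARV-825 and the lowest control library of CEBPD lay close together, at 44.8 and 49.2 FPKM. CEBPZ had 23.9, 23.8 and 25.6 FPKM with ARV-825, against 34.5, 32.4 and 32.2 FPKM in control (-0.42 ± 0.047, limma adjusted p = 1.08e-05). CEBPZ overlaps CEBPZOS, a gene on the opposite strand, over much of its span in GENCODE release 29, and the labels do not say whether reads kept their strand. CEBPZOS itself averaged 17.9 ± 1.67 FPKM with ARV-825 and 17.8 ± 0.845 FPKM in control (0.01, limma adjusted p = 0.934). It was lower with OTX015 than in control (-0.29, limma adjusted p = 0.0154) and higher with ARV-825 than with OTX015 (0.30, limma adjusted p = 0.0166). With RUNX1 shRNA it was lower than with shNT (-0.23, limma adjusted p = 0.0144). The part of CEBPZOS in the values of CEBPZ was not tested.

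OTX015, the parent inhibitor at the same dose and time, lowered SPI1 and CEBPE about as far and left CEBPB and CEBPD near control. Of the 7 tested members, 5 were lower and 2 did not pass the test, where 33.5% of all tested genes were lower, 36.1% higher and 69.6% changed either way. SPI1 and CEBPE, 2 of the 7, passed the test and fell to 0.5 of control or less as FPKM + 1, as 4.96% of tested genes did. The groups were fully apart in the same 5 members, as in 75.3% of tested genes. Both drugs were compared with the same 3 control libraries.

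SPI1 had 63.4, 63.4 and 57.3 FPKM with OTX015, against the control values above (-1.75 ± 0.06, limma adjusted p = 3.57e-09), which ranked 101 by size of fall. CEBPE had 3.69, 3.19 and 3.06 FPKM with OTX015, a log2 change of -1.98 ± 0.089 (limma adjusted p = 1.8e-08). These were the steepest falls among the members with this drug too. SPIB had 0.394, 0.231 and 0.182 FPKM with OTX015, all below the lowest control library, and without the filter its log2 change was -0.51 ± 0.093 (limma adjusted p = 0.00214).

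CEBPA had 24.6, 25.7 and 22.1 FPKM with OTX015, an intermediate level between ARV-825 and control (-0.44 ± 0.08 against control, limma adjusted p = 0.000563). CEBPG had 12.3, 11.97 and 12.1 FPKM, likewise intermediate (-0.41 ± 0.062, limma adjusted p = 0.000154). CEBPZ had 27.4, 26.7 and 27.1 FPKM (-0.28 ± 0.047, limma adjusted p = 0.000306). All 3 genes had no OTX015 library that reached the lowest control library.

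CEBPB had 34.2, 38.5 and 32.3 FPKM with OTX015, which overlapped the control range of 28.2 to 37.8 FPKM. Its log2 change was 0.05 (95% interval -0.265 to 0.363, limma adjusted p = 0.772), and the sign turned to -0.08 without control replicate 1 and to -0.02 without OTX015 replicate 2. CEBPD had 62.6, 68.1 and 59.3 FPKM with OTX015, overlapping control at 49.2 to 62.6 FPKM, with a log2 change of 0.15 (95% interval -0.0646 to 0.355, limma adjusted p = 0.193). The upper limits leave room for a rise in either gene. The lower limits lay above the changes with ARV-825, both for CEBPB (-0.265 against -1.03) and for CEBPD (-0.0646 against -0.42).

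**Figure D2:**
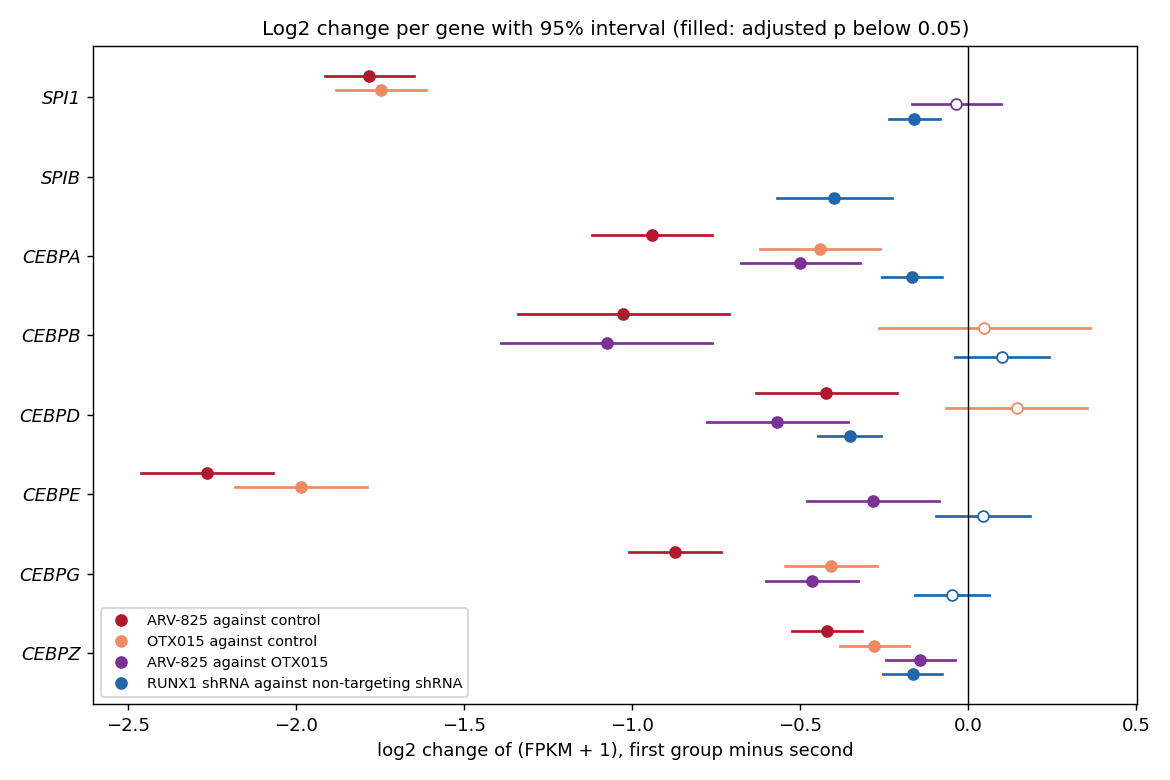
Log2 change of FPKM + 1 (horizontal axis, first group minus second) of each member in the 4 comparisons, with 95% intervals of limma; filled points passed an adjusted p of 0.05, and SPIB was below the filter in the drug libraries. SPI1 lies at -1.78 with ARV-825 and -1.75 with OTX015, while CEBPB lies at -1.03 and 0.05.

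In the direct comparison of the degrader with the inhibitor, SPI1 did not pass the test, while the C/EBP genes did, CEBPE and CEBPZ by small differences. SPI1 averaged 59.9 ± 1.96 FPKM with ARV-825 and 61.4 ± 3.54 FPKM with OTX015, a log2 difference of -0.03 with a 95% interval of -0.167 to 0.0985 (limma adjusted p = 0.644), and the sign turned after median-ratio rescaling (0.0091). The other 6 tested members were lower with ARV-825 than with OTX015, where 33.4% of all tested genes were lower, 24.7% higher and 58.1% differed either way. CEBPB alone, 1 of the 7, passed the test at 0.5 or less of its OTX015 level as FPKM + 1, as 1.05% of tested genes did. The libraries of the drugs did not overlap in these 6 genes, as in 62% of tested genes.

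CEBPB differed most between the drugs. It averaged 16.3 ± 3.29 FPKM with ARV-825 and 35.0 ± 3.17 FPKM with OTX015 (log2 difference -1.07 ± 0.142, limma adjusted p = 0.000108), which ranked 83 among the 10819 tested genes by how far ARV-825 lay below OTX015. CEBPD averaged 42.5 ± 4.05 FPKM with ARV-825 and 63.3 ± 4.44 FPKM with OTX015 (-0.57 ± 0.095, limma adjusted p = 0.000498). CEBPA averaged 16.8 ± 1.51 FPKM with ARV-825 and 24.1 ± 1.81 FPKM with OTX015 (-0.50 ± 0.08, limma adjusted p = 0.000398). CEBPB thus stood apart by over 2-fold, and CEBPD and CEBPA by less.

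CEBPG averaged 8.52 ± 0.485 FPKM with ARV-825 and 12.1 ± 0.192 FPKM with OTX015 (-0.47 ± 0.062, limma adjusted p = 0.000114). The differences of CEBPE (-0.28 ± 0.089, limma adjusted p = 0.0187) and CEBPZ (-0.14 ± 0.047, limma adjusted p = 0.0234) were smaller. CEBPE no longer passed without ARV-825 replicate 1, ARV-825 replicate 2 or OTX015 replicate 1 (limma adjusted p = 0.0585, 0.0528 and 0.0783). CEBPZ no longer passed without those same libraries (limma adjusted p = 0.0829, 0.0686 and 0.0722) or after median-ratio rescaling (0.0943).

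Summed over the 5 bZIP genes CEBPA, CEBPB, CEBPD, CEBPE and CEBPG, the level was 86.6 ± 9.42 FPKM with ARV-825, 138 ± 9.3 FPKM with OTX015 and 157 ± 15.1 FPKM in control. CEBPD made up 49.1% ± 1.01 of the sum with ARV-825, 45.9% ± 0.33 with OTX015 and 36.5% ± 1.09 in control. CEBPE made up 2.95% ± 0.257 with ARV-825, 2.41% ± 0.261 with OTX015 and 10.2% ± 0.269 in control. The share of CEBPD was thus higher and that of CEBPE lower in every treated library than in every control library. CEBPB held 18.7% ± 1.86 with ARV-825, 25.4% ± 0.659 with OTX015 and 21.6% ± 1.24 in control, so that the drug means lay on opposite sides of control, although the highest ARV-825 library touched the control range.

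The balance of CEBPB to CEBPA, as the difference of their log2(FPKM + 1) values in each library, averaged -0.06 ± 0.164 with ARV-825, 0.52 ± 0.053 with OTX015 and 0.03 ± 0.108 in control. It was higher in all 3 OTX015 libraries than in the control libraries, by 0.49 (exact two-sided permutation p = 0.1, the smallest that 3 against 3 libraries can give). With ARV-825 it differed from control by -0.09 and the groups overlapped (exact permutation p = 0.6), and between the drugs it differed by -0.58 with no overlap (exact permutation p = 0.1).

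**Figure D3:**
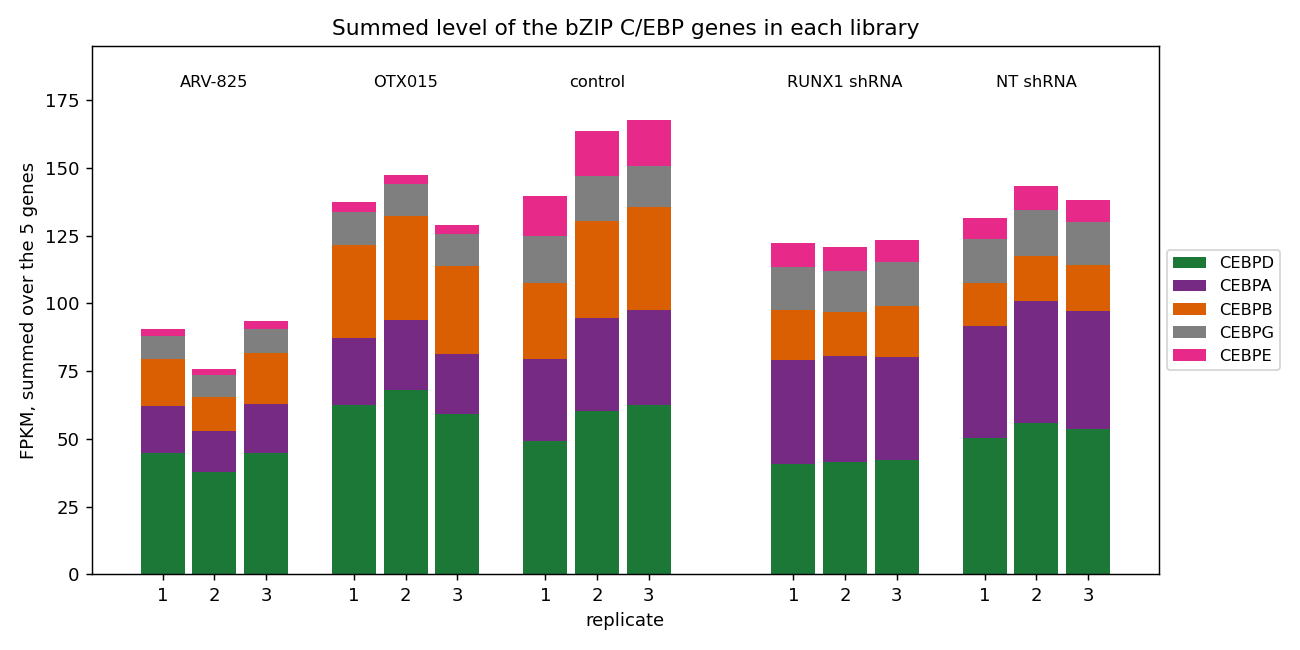
FPKM of the 5 bZIP C/EBP genes stacked for each library (linear axis from 0), with replicates side by side and the shRNA libraries, which were normalized separately, at the right. The ARV-825 libraries sum to between 75.9 and 93.6 FPKM and the control libraries to between 140 and 168 FPKM.

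The shRNA comparison asked how lowering RUNX1 for 72 h changed the same factors. SPIB, CEBPD, SPI1, CEBPA and CEBPZ fell with RUNX1 shRNA, each by less than the drugs changed SPI1, and CEBPB, CEBPE and CEBPG did not pass the test. Thus 5 of 8 members, all tested here, were lower and 0 were higher, where 13.8% of all 10925 tested genes were lower, 13.5% higher and 27.4% changed either way. Of the members, 0 fell to 0.5 of shNT or less as FPKM + 1, while 0.165% of tested genes did so and passed the test. The libraries did not overlap in these 5 genes, as in 44.1% of tested genes.

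SPIB had 1.68, 1.67 and 1.82 FPKM with RUNX1 shRNA, against 2.76, 2.55 and 2.46 FPKM with shNT (-0.40 ± 0.075, limma adjusted p = 0.00586). Its level fell to 66.6% of shNT, the largest relative fall of the members, although its low level makes the log2(FPKM + 1) scale understate it. In GENCODE release 29 SPIB overlaps another protein-coding gene on the same strand, so some of its reads could be shared. SPI1 had 136, 147 and 146 FPKM with RUNX1 shRNA, against 158, 162 and 158 FPKM with shNT (-0.16 ± 0.034, limma adjusted p = 0.00985). SPI1 was thus at 89.6% of shNT, with all 3 libraries below.

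CEBPD had 40.8, 41.4 and 42.2 FPKM with RUNX1 shRNA, against 50.3, 55.8 and 53.6 FPKM with shNT (-0.35 ± 0.041, limma adjusted p = 0.000569). It had the smallest p of the members here. CEBPA had 38.3, 39.2 and 37.9 FPKM with RUNX1 shRNA, against 41.3, 45.2 and 43.4 FPKM with shNT (-0.16 ± 0.039, limma adjusted p = 0.0155). CEBPZ had 30.8, 28.8 and 28.7 FPKM with RUNX1 shRNA, against 33.7, 33.1 and 32.5 FPKM with shNT (-0.16 ± 0.039, limma adjusted p = 0.0154). CEBPA missed the threshold without shNT replicate 2 or 3 (limma adjusted p = 0.0588 and 0.0531), CEBPZ without shNT replicate 1 or 2 (0.0582 and 0.0514), and the count of members called was 3 without shNT replicate 2.

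CEBPB averaged 17.8 ± 1.4 FPKM with RUNX1 shRNA and 16.5 ± 0.67 FPKM with shNT, a log2 change of 0.10 with a 95% interval of -0.0385 to 0.243 (limma adjusted p = 0.251). CEBPE averaged 8.55 ± 0.382 FPKM with RUNX1 shRNA and 8.26 ± 0.46 FPKM with shNT (95% interval -0.095 to 0.184, limma adjusted p = 0.625). CEBPG averaged 15.9 ± 0.647 FPKM with RUNX1 shRNA and 16.4 ± 0.568 FPKM with shNT (95% interval -0.156 to 0.063, limma adjusted p = 0.505). The groups overlapped in all 3 genes. CEBPE, the member lowered furthest by both drugs, thus had an interval that spanned no change with RUNX1 shRNA, but the experiments differ in time and normalization and their changes were not tested against each other. The balance of CEBPB to CEBPA averaged -1.08 ± 0.134 with RUNX1 shRNA and -1.34 ± 0.051 with shNT, and the groups did not overlap (exact permutation p = 0.1, the smallest possible).

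The gene lists below can be read beside the shares of all tested genes. With ARV-825 38.4% were lower and 35.8% higher, and with OTX015 33.5% and 36.1%. Between the drugs the shares were 33.4% and 24.7%, and with RUNX1 shRNA 13.8% and 13.5%. The medians over all tested genes were -0.01, 0.03, -0.04 and -0.01 in that order. Genes reported as targets of PU.1, 39 in a list drawn from general knowledge, were then counted. After ARV-825, 21 of 35 tested were lower and 8 were higher (median log2 change -0.39, against -0.01 over all tested genes). After OTX015, 23 were lower and 0 higher (median -0.48, against 0.03 over all). The largest changes with ARV-825 were in the monocyte chemokine receptor CCR2 (-4.53), the MHC class II activator CIITA (-2.37) and the Fc receptor FCGR2A (-1.57). With OTX015 they were in CCR2 (-3.43), CIITA (-2.31) and the macrophage growth factor receptor CSF1R (-2.19). Of the 35 genes, 20 were higher and 4 lower with ARV-825 than with OTX015 (median 0.28, against -0.04 over all). The Fc receptor FCGR3A averaged 8.90 FPKM with ARV-825 and 3.39 FPKM with OTX015, whereas CCR2 averaged 0.493 FPKM with ARV-825 and 2.16 FPKM with OTX015.

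With RUNX1 shRNA the PU.1 target list had 11 higher and 10 lower of 34 tested (median 0.01). CYBB, the catalytic subunit of the phagocyte oxidase, averaged 9.83 FPKM with RUNX1 shRNA and 4.03 FPKM with shNT (1.11, limma adjusted p = 7.26e-06). The granule protease CTSG averaged 4.52 FPKM with RUNX1 shRNA and 11.9 FPKM with shNT (-1.22, limma adjusted p = 1.49e-05). The list thus moved in both directions, and its link to the level of SPI1 was not tested.

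Reported C/EBP targets (40 listed, several shared with the PU.1 list) had 24 members tested in the drug libraries. After ARV-825, 10 were higher and 11 lower (median 0.13). After OTX015, 2 were higher and 15 lower (median -0.37). Between the drugs, 15 were higher and 7 lower with ARV-825 (median 0.37), with the repressor GFI1 (-1.503) and the chemokine CXCL8 (-1.42) the largest differences. The chemokine CCL2 fell with both drugs (-3.20 with ARV-825 and -2.58 with OTX015), and the surface receptor CLEC5A averaged 0.533 FPKM with OTX015 and 4.64 FPKM in control. With ARV-825 the list thus moved in both directions, and its link to the levels of the C/EBP genes was not tested.

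With RUNX1 shRNA the C/EBP target list had 10 lower and 3 higher of 17 tested (median -0.30). Besides CTSG, the granule peroxidase MPO averaged 0.903 FPKM with RUNX1 shRNA and 2.44 FPKM with shNT (-0.85, limma adjusted p = 0.000313). The neutrophil granule marker list summed to between 6.77 and 7.87 FPKM with RUNX1 shRNA and to between 17.1 and 18.3 FPKM with shNT. The monocyte list summed to between 640 and 651 FPKM with RUNX1 shRNA and to between 772 and 779 FPKM with shNT. LYZ held most of this sum and averaged 366 FPKM with RUNX1 shRNA and 542 FPKM with shNT. Of the other monocyte markers at a mean of 1 FPKM or more, CCR2 was lower on average with RUNX1 shRNA. FCGR1A (51.3 against 28.9 FPKM), ITGAM (14.1 against 6.48 FPKM), CD68, CSF1R and CST3 had higher means with RUNX1 shRNA. Both lists share genes with the target lists, and their part in these counts was not tested.

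In the drug libraries the monocyte marker list summed to between 642 and 686 FPKM with ARV-825, between 537 and 547 FPKM with OTX015 and between 784 and 822 FPKM in control. LYZ held most of this sum and averaged 499, 411 and 568 FPKM in that order. Of the other monocyte markers at a mean of 1 FPKM or more, CSF1R (14.6 against 41.1 FPKM), FCGR1A and CCR2 had lower means with ARV-825 than in control. CD68 (98.9 against 78.1 FPKM), ITGAM and CST3 had higher means with ARV-825. With OTX015 CD68 and ITGAM had higher means than in control, and CST3 a lower one. The neutrophil granule list summed to between 9.10 and 11.8 FPKM with ARV-825, between 4.22 and 5.62 FPKM with OTX015 and between 6.42 and 7.68 FPKM in control. Its largest difference between ARV-825 and control was in AZU1, at 4.41 against 1.76 FPKM. The T and NK cell list, led by the granule protein NKG7, summed to between 48.4 and 50.5 FPKM with ARV-825, between 31.9 and 33.2 FPKM with OTX015 and between 33.9 and 36.1 FPKM in control. The part of these shifts in the results for the members was not tested.

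**Figure D4:**
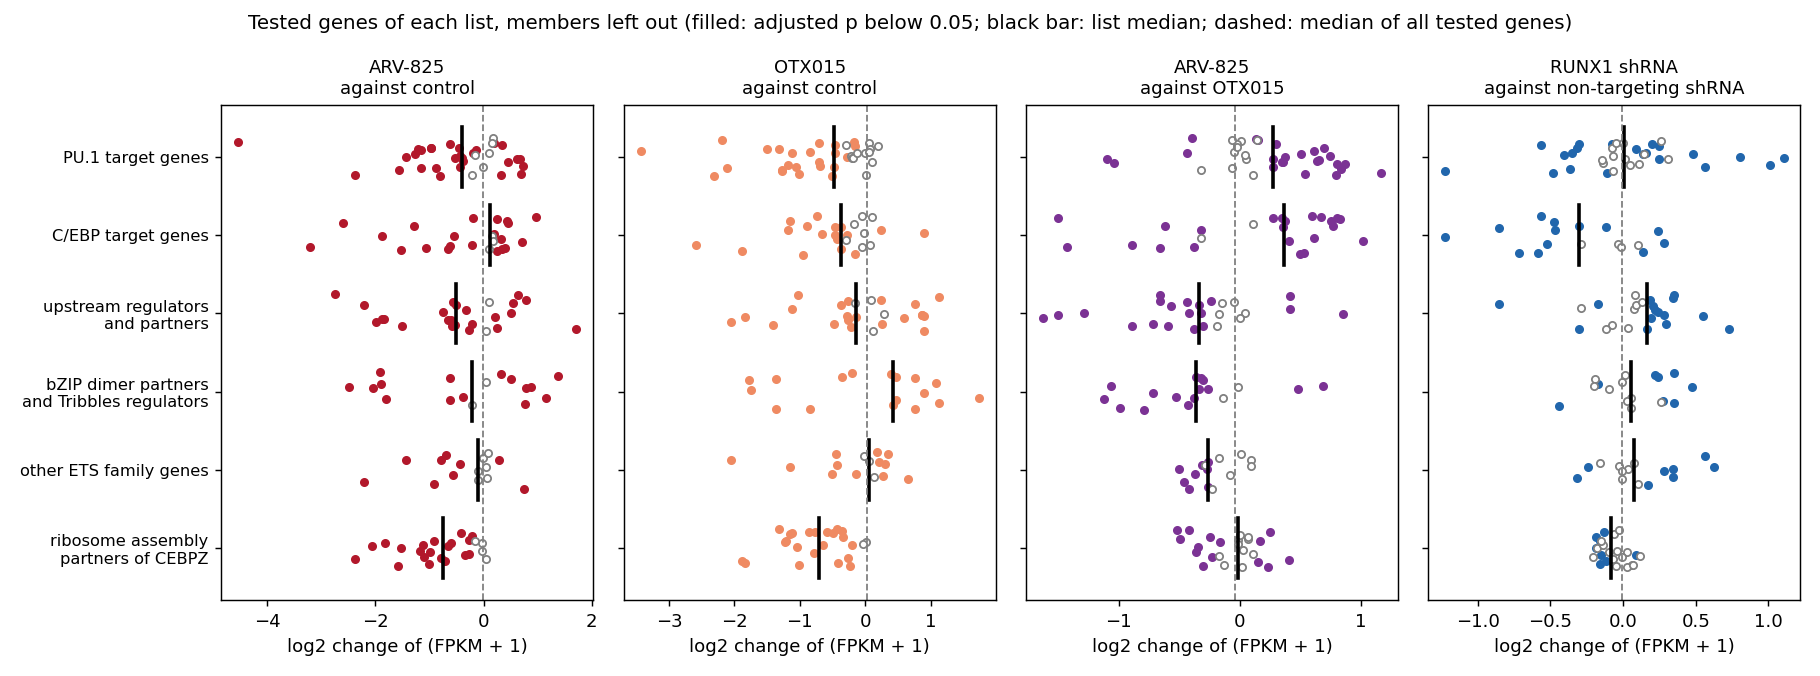
Log2 change of FPKM + 1 (horizontal axis) of the tested genes of 6 lists in the 4 comparisons; filled points passed an adjusted p of 0.05, black bars are list medians and the dashed line is the median of all tested genes. The PU.1 target list has medians of -0.39 with ARV-825 and -0.48 with OTX015, and the ribosome assembly list of -0.75 and -0.71.

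Among 30 upstream regulators and partners, 25 were tested in the drug libraries. After ARV-825, 16 were lower and 7 higher (median -0.51), led by the progenitor factors MYB (-2.74) and ERG (-2.22) and the erythroid and stem cell factor TAL1 (-1.98). After OTX015, 12 were lower and 9 higher (median -0.14), with ERG (-2.04), TAL1 (-1.83) and GATA2 (-1.41) changing most. RUNX1 averaged 36.2 ± 2.39 FPKM with ARV-825, 55.2 ± 5.25 FPKM with OTX015 and 61.4 ± 2.09 FPKM in control. The change of RUNX1 with OTX015 did not pass the test (-0.15, limma adjusted p = 0.0668). Its 95% interval, from -0.304 to -0.00171, does not show that RUNX1 was unchanged. The link of RUNX1 to the level of SPI1 was not tested. With RUNX1 shRNA 12 of 23 tested were higher and 3 lower (median 0.17). GATA2, an antagonist of PU.1 in progenitors, averaged 22.6 FPKM with RUNX1 shRNA and 13.2 FPKM with shNT (0.73, limma adjusted p = 3.24e-05).

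The list of other bZIP partners of C/EBP proteins also held the Tribbles genes, of which TRIB1 and TRIB2 promote degradation of C/EBPα, and had 17 members tested. After ARV-825, 8 were lower and 7 higher (median -0.22), led by the stress regulator TRIB3 (-2.49) and the AP-1 subunits FOSL1 (-2.05) and FOSL2 (-1.90). After OTX015, 7 were lower and 10 higher (median 0.42), led by BATF3 (-1.78), FOSL1 (-1.74) and JUND (1.74). The AP-1 gene JUND averaged 203 FPKM with OTX015 and 60.3 FPKM in control. Between the drugs, 13 of 17 were lower and 2 higher with ARV-825 (median -0.36), with TRIB3 (-1.12) and FOSL2 (-1.06) furthest apart. With RUNX1 shRNA 6 were higher and 2 lower (median 0.06), among them FBXW7, a ubiquitin ligase subunit (0.48), and the stress factor ATF3 (-0.44).

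Of 26 other ETS genes, 15 were tested in the drug libraries. With ARV-825, 7 were lower and 2 higher (median -0.10), and with OTX015, 6 were lower and 6 higher (median 0.06). Of these 15 genes 60% changed with ARV-825, against 74.2% of all tested genes, and 80% with OTX015, against 69.6%. After ERG, the largest changes were in ELK3 (-1.44 with ARV-825 and -1.15 with OTX015), ETS2 (-0.91 with ARV-825) and ETV3 (0.66 with OTX015). Of these named ETS genes ERG alone fell further than SPI1. Between the drugs, 8 were lower and 0 higher with ARV-825, including ELF1 (-0.50) and ETS2 (-0.46). With RUNX1 shRNA 6 were higher and 2 lower (median 0.08), and ELK4 (0.63) and ELK3 (0.56), both ternary complex factors, changed most.

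CEBPZ was set beside 24 nucleolar ribosome assembly genes, all tested. Of these, 20 were lower and 0 higher with ARV-825 (median -0.75), and 22 were lower and 0 higher with OTX015 (median -0.71). RRS1 (-2.36), NOP16 (-2.05) and WDR43 (-1.82) changed most with ARV-825, and NOP16 (-1.89), RRS1 (-1.84) and WDR43 (-1.32) with OTX015. The changes of CEBPZ, -0.42 and -0.28, were smaller than the list medians. Between the drugs 9 were lower and 5 higher with ARV-825 (median -0.01), among them RRS1 (-0.52) and WDR43 (-0.50). With RUNX1 shRNA 7 were lower and 1 higher (median -0.08), including NIFK and EBNA1BP2 (both -0.19), beside -0.16 for CEBPZ.

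Genes with the most similar pattern were found by Pearson correlation of log2(FPKM + 1) over the 9 drug libraries, which share their controls and fall into 3 groups, so the values are descriptions without a test. Nearest to SPI1 were the nucleotide receptor P2RY6 (r = 0.999), the macrophage pore protein MPEG1 (r = 0.999) and the transporter SLC43A3 (r = 0.998), and 96 genes reached 0.99. P2RY6 averaged 3.43 FPKM with ARV-825, 3.71 FPKM with OTX015 and 14.96 FPKM in control, near-equal levels with both drugs as for SPI1. Nearest to CEBPE were FOSL1 (r = 0.999), CCDC86 (r = 0.998) and the oxysterol receptor GPR183 (r = 0.997), and 128 genes reached 0.99. CEBPA had POFUT1 (r = 0.997), FURIN (r = 0.995) and NR2F6 (r = 0.995) nearest, with stepwise levels such as 2.70, 5.41 and 9.29 FPKM for NR2F6 in ARV-825, OTX015 and control. CEBPB had IRX5 (r = 0.985), RBM34 (r = 0.983) and C11orf24 (r = 0.983) nearest, with 0 genes at 0.99. CEBPD had TNFAIP8L1 (r = 0.991), F8A1 (r = 0.987) and RADIL (r = 0.983). For CEBPB and CEBPD these neighbours also had ARV-825 below OTX015, as RBM34 did at 45.4 FPKM with ARV-825, 68.7 FPKM with OTX015 and 64.8 FPKM in control. Neighbours of every member were chosen by likeness over these same libraries, so a shared group pattern follows from the choice.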

How the data were processed

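Total RNA of 15 OCI-AML5 libraries was sequenced. The authors deposited separate tables for the 9 drug and the 6 shRNA libraries, with 19620 coding entries apiece. Their deposited values were taken to be FPKM after quantile normalization inside a table; the tables state no unit, and this reading rests on Cufflinks 2.0, listed with TopHat2 2.0 and the build hg19 per the submitters' processing notes, and on the values. Such values hide changes in total RNA per cell, and no source used here names the annotation.

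Columns were matched to samples by title and groups taken from the treatment labels. Left out were 16 pseudoautosomal copies, and 28 symbols that a spreadsheet had changed to dates were recovered through gene IDs. Genes averaging 1 FPKM or more within a table were tested as log2(FPKM + 1), a scale that understates changes of low genes, with limma 3.58.1 (mean-variance trend, two-sided, Benjamini-Hochberg adjustment over all tested genes, threshold 0.05) in R 4.3.3. The 9 drug libraries shared 1 fit and the 6 shRNA libraries had another. The fit was checked on simulated data. P-values measure the spread between libraries, which may be technical, since no label names separate cultures. At most 60 tested genes had equal values in a pair of libraries.

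The members, the gene lists and the tests were chosen with earlier results of these data known. Genes named from each list were taken from the 3 called genes with the largest change in each comparison with control, and 2 in the other comparisons. Not every one of these genes is printed. MYC and RUNX3 were named to check treatments and labels. CEBPZOS, NKG7, LCN2, AZU1 and the single monocyte markers were chosen after their values were seen. Alternatives were other pseudocounts, filters, scaling, a fit without trend, a block, fits of the compared groups alone and leaving out each library.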

Additional observations from a re-analysis of the deposited data

How the results depend on the processing

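Of 460 values of single members under the alternatives, 446 kept their direction and side of the threshold, 11 no longer passed, 0 newly passed and 3 changed sign. The sign changes were in changes that had not passed: CEBPB with OTX015 (-0.08 without control replicate 1 and -0.02 without OTX015 replicate 2, range -0.077 to 0.13 over the libraries left out) and SPI1 between the drugs (0.0091 after median-ratio rescaling). The CEBPB to CEBPA balance with ARV-825 against control also changed sign without ARV-825 replicate 2 (0.0055, range -0.15 to 0.0055). Leaving out each library in turn, the members called numbered 7 to 7 with ARV-825, 5 to 5 with OTX015, 4 to 6 between the drugs and 3 to 5 with RUNX1 shRNA, and all genes called 7492 to 8102, 6895 to 7689, 5573 to 6267 and 1997 to 2840. With 3 libraries a group and unknown depth, small changes such as those of CEBPZ and CEBPA with RUNX1 shRNA lie near the limit of what passes.

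The titles number replicates 1 to 3 in every group. Deviations of same-numbered libraries correlated at -0.321 to 0.0613, so the numbers were not taken to pair samples. With a replicate block the members called numbered 7 with ARV-825, 5 with OTX015, 6 between the drugs and 5 with RUNX1 shRNA, and all genes called 7771, 7262, 5884 and 2585.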
